A study of Homo sapiens with 6 samples.

Results

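Alpha and beta tubulin isotypes were examined in 22Rv1 cells, an established human prostate carcinoma line, after knockdown of ZMYND11, a chromatin reader of histone methylation linked to transcription elongation. The isotypes were taken by symbol from the table of read counts per gene: TUBA1A, TUBA1B, TUBA1C and TUBA4A encode alpha tubulins, and TUBB, TUBB2A, TUBB2B, TUBB3, TUBB4B and TUBB6 encode beta tubulins. These are 10 of 35322 gene symbols in the table, and all 10 passed the filter on low counts that left 16510 genes for testing. RNA sequencing was available for 6 libraries: 2 of the control group, labelled WT, 2 of ZM11-kd1 and 2 of ZM11-kd2, both labelled ZMYND11 knockdown. All cells were grown in RPMI1640 medium with 10% fetal bovine serum, and no experimental treatment is named for these libraries. The labels call the control cells WT, whereas the study describes its RNA-sequenced 22Rv1 cells as stably carrying either a control short hairpin RNA or one against ZMYND11, and the sources do not settle which applies to the control libraries. For lentiviral knockdown the study's methods select cells with puromycin and then keep a lower dose in the medium. If the control cells were not transduced, transduction and puromycin cannot be told apart from the knockdown. Which hairpin each knockdown carried and whether the replicates were separate cultures are not given in the sources used here, so p-values measure only the spread between these libraries, which may be technical.

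Microtubules are built from heterodimers of alpha and beta tubulin, and human cells draw on several genes for each partner. The isotypes share most of their sequence and differ chiefly in the acidic tail at the carboxyl end, where glutamates carry added glutamate chains and where motors and other microtubule-associated proteins bind. Cells also tune tubulin mRNA to the pool of unpolymerized dimers: the factor TTC5 reads the opening residues of the nascent chain on the ribosome and, through SCAPER and the CCR4-NOT subunit CNOT11, directs decay of the mRNA being translated.

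The opening of the coding sequence is shown because it holds that decay signal, with 30 bases printed 5′ to 3′ from the start codon and the codons that follow the start codon, up to the end of the signal, in capitals. The sequences are those of the canonical GENCODE 44 transcripts (GRCh38). Within each family the capitals below spell the same residues and differ only in silent codon choice.
TUBA1A: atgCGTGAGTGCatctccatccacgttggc
TUBA4A: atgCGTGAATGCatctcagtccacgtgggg
TUBB: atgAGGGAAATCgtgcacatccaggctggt
TUBB2A: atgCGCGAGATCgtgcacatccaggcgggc
TUBB2B: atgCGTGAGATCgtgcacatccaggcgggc

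The tail is shown for beta members on which the results turn, because most isotypes differ there. The last 60 coding bases before the stop codon, which make 20 codons, are printed with the glutamate codons in capitals.
TUBB2A: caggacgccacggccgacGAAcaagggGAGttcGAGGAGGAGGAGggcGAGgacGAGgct
TUBB2B: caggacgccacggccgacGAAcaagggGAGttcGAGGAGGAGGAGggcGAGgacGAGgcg
TUBB4B: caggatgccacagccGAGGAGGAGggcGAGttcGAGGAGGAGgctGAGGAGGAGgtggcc
TUBB6: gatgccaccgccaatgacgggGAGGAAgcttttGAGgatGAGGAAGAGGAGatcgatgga
Among the beta members the number of glutamate codons in the window ran from 7 in TUBB6 to 10 in TUBB4B, with 8 in TUBB2A and TUBB2B.

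The alpha genes TUBA1B, TUBA1A and TUBA1C lie next to each other on chromosome 12 of GRCh38, at 49127782 to 49131397 and 49184686 to 49189080 on the minus strand and 49188736 to 49274600 on the plus strand. TUBA4A lies on chromosome 2 at 219249710 to 219277902, minus strand. TUBB2A and TUBB2B are neighbours on the minus strand of chromosome 6, at 3153497 to 3157544 and 3223324 to 3231730, and TUBB lies on the same chromosome at 30717435 to 30725538, plus strand. TUBB3 (chromosome 16, 89921392 to 89938761), TUBB4B (chromosome 9, 137241287 to 137243707) and TUBB6 (chromosome 18, 12307669 to 12344320) are all on the plus strand. Each canonical transcript has 4 exons.

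How far a read can be assigned to one isotype differs among the members. Coding sequences were 98.1% identical between TUBB2A and TUBB2B, 97.2% between TUBA1A and TUBA1B, 96.8% between TUBA1B and TUBA1C and 95.9% between TUBA1A and TUBA1C, against 84.4% to 85.7% for TUBA4A with the other alpha members and 81.0% to 87.7% for the other beta pairs. Sequencing was paired, with reads of 150 bases, so windows of 150 bases along each canonical transcript were searched for exact copies in other genes or elsewhere in the primary genome. Such copies were found for 48.7% of TUBB2A windows, 41.5% of TUBB2B windows and 19.2% of TUBA1B windows. They were found for 8.01% of TUBA1A windows, 7.22% of TUBA1C windows, 2.66% of TUBB windows and 2.31% of TUBB3 windows, and for none in TUBA4A, TUBB4B and TUBB6. TUBB also had exact copies on alternate contigs of the build for 84.5% of its windows. Whether those contigs were in the authors' index, and how reads with several matches were counted, is not given in the sources used here, so values of TUBB2A, TUBB2B, TUBA1B and TUBB are uncertain as single-gene values. Annotated tubulin pseudogenes took few counts, at most 1.03% of a member's own count in any library, for TUBB.

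**Figure D1:**
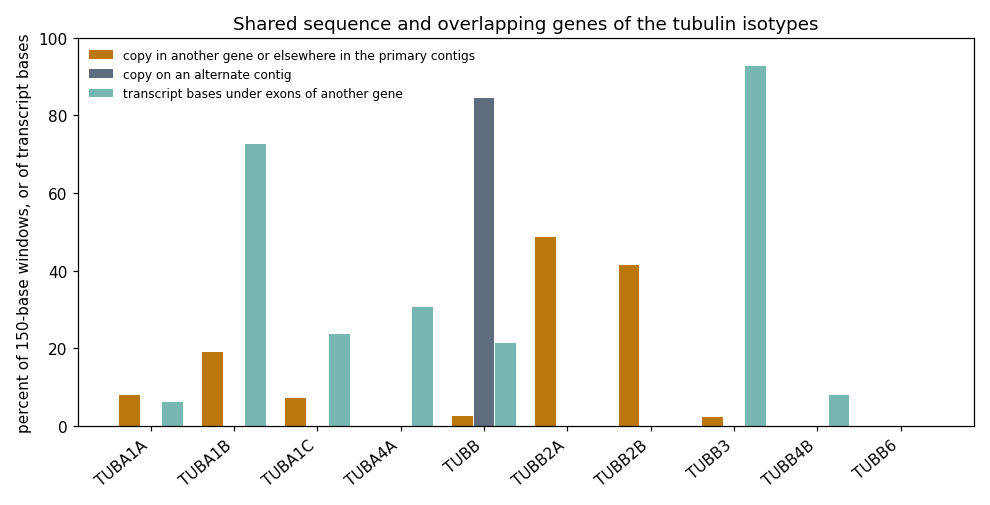
For each tubulin isotype, the percent of 150-base windows of its canonical transcript with an exact copy in another gene or elsewhere in the primary contigs (brown), or on an alternate contig (grey), and the percent of its transcript bases that lie under exons of another annotated gene on either strand (green). TUBB2A and TUBB2B have the highest brown bars (48.7% and 41.5%), TUBB alone has a grey bar (84.5%), and the green bars of TUBB3 and TUBA1B reach 92.9% and 72.7%.

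Several members also overlap other genes. The antisense gene TUBA1B-AS1 covers 72.7% of the canonical TUBA1B transcript, the antisense gene STK16 covers 30.7% of TUBA4A, and TUBA1C exons cover 6.22% of TUBA1A on the opposite strand. A same-strand readthrough gene (ENSG00000198211) covers 92.9% of TUBB3. TUBB6 shares 837 exonic bases with the antisense gene AFG3L2, but none in its canonical transcript. The strand setting of the counting is not given in the sources used here, and without strand the reads of such pairs cannot be told apart. STK16 itself had log2 fold changes of 0.16 in ZM11-kd1 and -0.01 in ZM11-kd2, neither past the threshold (adjusted p = 0.0742 and 0.944, edgeR). The part of the overlap in the TUBA4A counts was not tested.

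Total counts per library ran from 26844128 to 27639713 in control, 33807634 to 38193748 in ZM11-kd1 and 33760573 to 36040761 in ZM11-kd2. ZMYND11 counts were 4283 and 4179 in control, 941 and 773 in ZM11-kd1, and 770 and 779 in ZM11-kd2, so the targeted gene went with the labels in every library. Levels are given as CPM, the count of a gene per 1000000 counts of the TMM-scaled library size, and differences as log2 fold changes with their standard errors (SE) from edgeR's quasi-likelihood test fitted to all 16510 genes. A gene was called at a Benjamini-Hochberg adjusted p under 0.05. Summed CPM of 10 proliferation genes was 1319 to 1326 in control, 124 to 131 in ZM11-kd1 and 188 to 203 in ZM11-kd2, and all 10 fell in both knockdowns, MKI67 with log2 fold changes of -8.11 and -6.59. The part of proliferation in the tubulin results below was not tested. Among cell type lists, the summed level of 3 basal epithelial markers stayed at or under 0.234 CPM and that of 3 endothelial markers at or under 0.196 CPM. Leukocyte markers summed to 1.66 to 3.67 CPM, with CD3E at 0 everywhere, and of 3 tested CD14 was called higher in each knockdown (0.81, not called under 2 of the other scalings, and 2.09) and LYZ lower in ZM11-kd2. Prostate luminal markers summed to 2851 to 2875 CPM in control, 3707 to 3736 in ZM11-kd1 and 4090 to 4106 in ZM11-kd2, with 5 of 10 called higher in each knockdown and 4 and 5 lower. Over all genes 38.2% were called higher and 39.8% lower in ZM11-kd1, and 36.5% and 36.9% in ZM11-kd2. KLK3, which encodes prostate-specific antigen, was among the luminal markers that fell (log2 fold change -3.24 and -2.36).

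In ZM11-kd1, 8 of the 10 isotypes rose and 2, TUBA1B and TUBB, fell, although among those that rose TUBA1C turned under scaling by library totals and TUBB4B under a correction for GC content and length, and TUBB3 lost its call under both. Over all genes tested, 38.2% were called higher and 39.8% lower in this comparison. With a change of at least 1.5-fold also required, 6 isotypes were higher and 2 lower, where 28.6% and 31.2% of all genes were. In ZM11-kd2, 6 isotypes rose, 3 fell (TUBA1B, TUBB and TUBB6) and TUBB3 was not called, against 36.5% of all genes higher and 36.9% lower. At 1.5-fold these became 4 higher and 2 lower, against 23.8% and 27.3%. The median log2 fold change of the isotypes was 1.12 in ZM11-kd1 and 0.40 in ZM11-kd2, and that of all genes was -0.03 in each. Both comparisons use the same control libraries. In such bulk libraries, a change in the number of cells that express a gene and a change in its RNA per cell cannot be told apart.

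**Figure D2:**
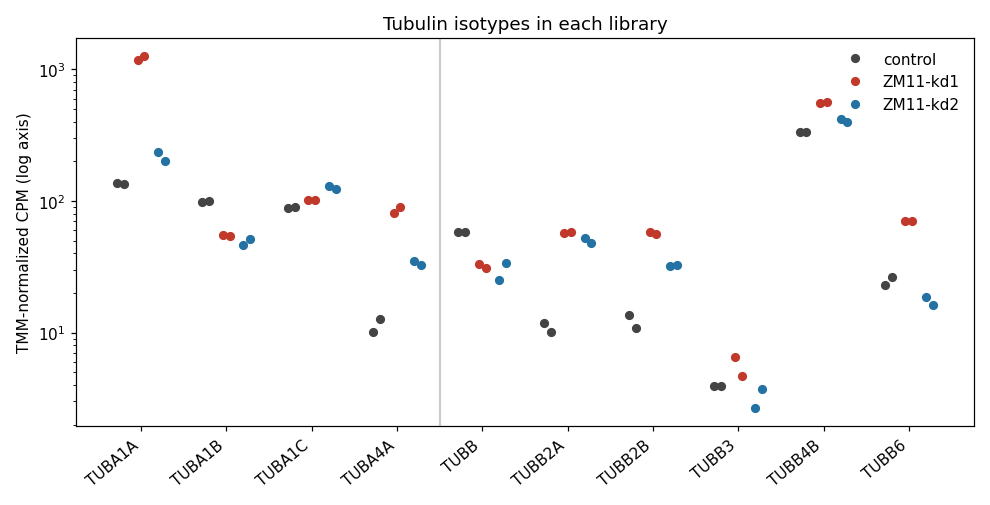
TMM-normalized CPM of each tubulin isotype on a log axis, with 1 point per library (2 per group) for control (grey), ZM11-kd1 (red) and ZM11-kd2 (blue); alpha members are left of the vertical line. TUBA1A stands at 1189.5 and 1276 CPM in the ZM11-kd1 libraries against 136 and 134 CPM in control, while TUBA1B and TUBB lie lower in all 4 knockdown libraries than in both control libraries.

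Among alpha tubulins, TUBA1A changed most in ZM11-kd1. TUBA1A encodes an alpha tubulin abundant in developing neurons. Its counts were 4151 and 4152 in control, 40412 and 37783 in ZM11-kd1, and 8394 and 6881 in ZM11-kd2. These are 135.0 ± 1.92 CPM in control, 1233 ± 61.3 CPM in ZM11-kd1 and 218 ± 24.1 CPM in ZM11-kd2 (SD, n = 2). No library of one group overlapped another group, and both ZM11-kd1 libraries stood far above all others. TUBA1A rose 9.13-fold in ZM11-kd1 (log2 fold change 3.19, SE 0.07, edgeR adjusted p = 8.12e-14) and 1.61-fold in ZM11-kd2 (0.69, SE 0.07, adjusted p = 4.47e-07).

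TUBA4A, an alpha isotype known from muscle, brain and platelets, moved the same way from a lower start. Its counts were 309 and 393 in control, 2777 and 2651 in ZM11-kd1, and 1252 and 1128 in ZM11-kd2. The groups did not overlap, with ZM11-kd2 between the other groups. TUBA4A rose 7.50-fold in ZM11-kd1 (log2 fold change 2.91, SE 0.10, edgeR adjusted p = 2.33e-12) and 2.98-fold in ZM11-kd2 (1.57, SE 0.10, adjusted p = 2.66e-09). No 150-base window of TUBA4A occurred elsewhere, even with 1 difference allowed.

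TUBA1B, a broadly expressed alpha tubulin, went the other way. Its level was 99.0 and 100.6 CPM in the control libraries, 55.5 and 54.7 CPM in ZM11-kd1, and 46.7 and 51.4 CPM in ZM11-kd2. All 4 knockdown libraries lay below both control libraries. The fitted level fell to 0.552 of control in ZM11-kd1 (log2 fold change -0.86, SE 0.06, edgeR adjusted p = 9.82e-09) and to 0.492 of control in ZM11-kd2 (-1.02, SE 0.06, adjusted p = 2.22e-09). TUBA1B thus fell in the libraries where its neighbour TUBA1A rose.

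TUBA1C, the remaining member of the chromosome 12 cluster, changed least among alpha members in ZM11-kd1. It stood at 88.2 and 90.9 CPM in control, 101.3 and 101.5 CPM in ZM11-kd1, and 130.4 and 122.5 CPM in ZM11-kd2. Its rise was 0.50 on the log2 scale in ZM11-kd2 (SE 0.06, edgeR adjusted p = 1.44e-06). The rise of 0.18 in ZM11-kd1 (SE 0.06, adjusted p = 0.00915) was not stable: it turned to -0.17 (adjusted p = 0.00925) with library totals as the only scaling. It was 0.15 without control replicate 1 and 0.18 without ZM11-kd1 replicate 2, each with 1 library left in that group.

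Because TUBA1A, TUBA1B and TUBA1C share sequence, their counts were also summed, so that a read given to the wrong one of them still enters the sum; a read dropped for matching several genes would not. The sum was 9846 and 10097 counts in control, 45741 and 42408 in ZM11-kd1, and 14723 and 12837 in ZM11-kd2. The summed level rose 4.28-fold in ZM11-kd1 (log2 fold change 2.10, SE 0.06, edgeR adjusted p = 4.87e-13). In ZM11-kd2 it rose by 0.28 (SE 0.06, adjusted p = 0.000511), a call that was lost with library totals as the only scaling (0.11, adjusted p = 0.0650).

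Among beta tubulins, TUBB2A and TUBB2B, the class II isotypes, had the largest increases. TUBB2A counts were 358 and 315 in control, 1954 and 1726 in ZM11-kd1, and 1857 and 1636 in ZM11-kd2. TUBB2B counts were 416 and 339 in control, 1980 and 1676 in ZM11-kd1, and 1145 and 1117 in ZM11-kd2. For both genes every knockdown library lay above both control libraries. TUBB2A rose by 2.40 (SE 0.09, edgeR adjusted p = 5.43e-12) and 2.19 (SE 0.09, adjusted p = 2.42e-11) on the log2 scale in ZM11-kd1 and ZM11-kd2. TUBB2B rose by 2.23 (SE 0.09, adjusted p = 2.47e-11) and 1.40 (SE 0.10, adjusted p = 7.30e-09). After correction for GC content and length, TUBB2A in ZM11-kd1 was at 1.80 (adjusted p = 1.79e-12). The sum of the pair rose 4.96-fold and 3.54-fold (log2 fold change 2.31 and 1.82, edgeR adjusted p = 3.04e-12 and 5.45e-11).

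TUBB, the widely expressed class I beta tubulin, fell in both knockdowns. It stood at 58.3 and 58.5 CPM in control, 33.3 and 30.8 CPM in ZM11-kd1, and 24.9 and 34.1 CPM in ZM11-kd2. The control libraries were closely matched, and the ZM11-kd2 libraries were spread widely enough to enclose both ZM11-kd1 libraries. The log2 fold change was -0.86 in ZM11-kd1 (SE 0.11, edgeR adjusted p = 3.98e-06) and -0.99 in ZM11-kd2 (SE 0.11, adjusted p = 1.25e-06). TUBB and TUBB2B, both on chromosome 6, thus moved in opposite directions.

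TUBB4B, the class IVb isotype, had the highest CPM of the beta members. It stood at 335 ± 1.72 CPM in control, 558 ± 5.69 CPM in ZM11-kd1 and 411 ± 13.0 CPM in ZM11-kd2 (SD, n = 2). The groups did not overlap. Its log2 fold change was 0.73 in ZM11-kd1 (SE 0.05, edgeR adjusted p = 4.20e-09) and 0.29 in ZM11-kd2 (SE 0.05, adjusted p = 9.44e-05). Neither increase was kept once GC content and length were corrected for, which gave -0.10 (adjusted p = 0.0533) and 0.10 (adjusted p = 0.0607), so the direction for TUBB4B in ZM11-kd1 depends on that choice. Over 15950 genes with both values known, the log2 fold change in ZM11-kd1 had a Spearman correlation of 0.191 with GC content and -0.283 with length, given as a description across genes, which are not independent replicates.

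TUBB6, the class V isotype, was the only member called in opposite directions in the knockdowns under TMM scaling; with library totals alone TUBA1C was too, at -0.17 and 0.33. Its counts were 699 and 824 in control, 2388 and 2081 in ZM11-kd1, and 668 and 558 in ZM11-kd2. In CPM the ZM11-kd1 libraries stood at 70.3 each, above control at 23.0 and 26.5, and ZM11-kd2 stood below control at 18.7 and 16.3. TUBB6 rose by 1.51 on the log2 scale in ZM11-kd1 (SE 0.09, edgeR adjusted p = 5.41e-10) and fell by 0.50 in ZM11-kd2 (SE 0.09, adjusted p = 0.000190). Its antisense neighbour AFG3L2 had a log2 fold change of -0.65 in ZM11-kd1 (adjusted p = 1.46e-06) and -0.02 in ZM11-kd2 (adjusted p = 0.815). The summed level of 7 fibroblast markers was also highest in ZM11-kd1, at 33.3 to 36.4 CPM in control, 86.8 to 87.2 CPM in ZM11-kd1 and 44.5 to 44.9 CPM in ZM11-kd2, and its part in the TUBB6 result was not tested. Most of that sum was COL1A1, at 23.9 and 23.8 CPM in control, 74.8 and 74.2 CPM in ZM11-kd1, and 30.1 and 32.4 CPM in ZM11-kd2. Of 6 fibroblast markers tested, 2 were called higher and 1 lower in ZM11-kd1 (all genes 38.2% and 39.8%). In ZM11-kd2 3 were higher and 2 lower (all genes 36.5% and 36.9%).

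TUBB3, the class III isotype used as a neuronal marker, was the least abundant member. Its counts were 120 and 122 in control, 221 and 138 in ZM11-kd1, and 95 and 127 in ZM11-kd2. The ZM11-kd1 libraries lay above control but far apart from each other. The log2 fold change was 0.51 in ZM11-kd1 (SE 0.21, edgeR adjusted p = 0.0350), and it dropped to 0.25 without ZM11-kd1 replicate 1, which left 1 library in that group. It was not called with library totals alone (0.16, adjusted p = 0.506) or after correction for GC content and length (0.35, adjusted p = 0.124). In ZM11-kd2 it was -0.31 (SE 0.22, adjusted p = 0.212), and -0.56 without ZM11-kd2 replicate 2, which left 1 library in that group. The summed level of 10 neuronal or neuroendocrine markers was 302 to 319 CPM in control, 391 to 394 CPM in ZM11-kd1 and 256 to 271 CPM in ZM11-kd2. Of 7 tested, 4 were called higher and 2 lower in ZM11-kd1 (all genes 38.2% and 39.8%), and 2 higher and 3 lower in ZM11-kd2 (all genes 36.5% and 36.9%). SYN1 (1.30 and 0.92) and CHGB (0.72 and 0.38) rose in both knockdowns, and CHGA, which encodes chromogranin A, fell in both (-2.77 and -2.23).

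**Figure D3:**
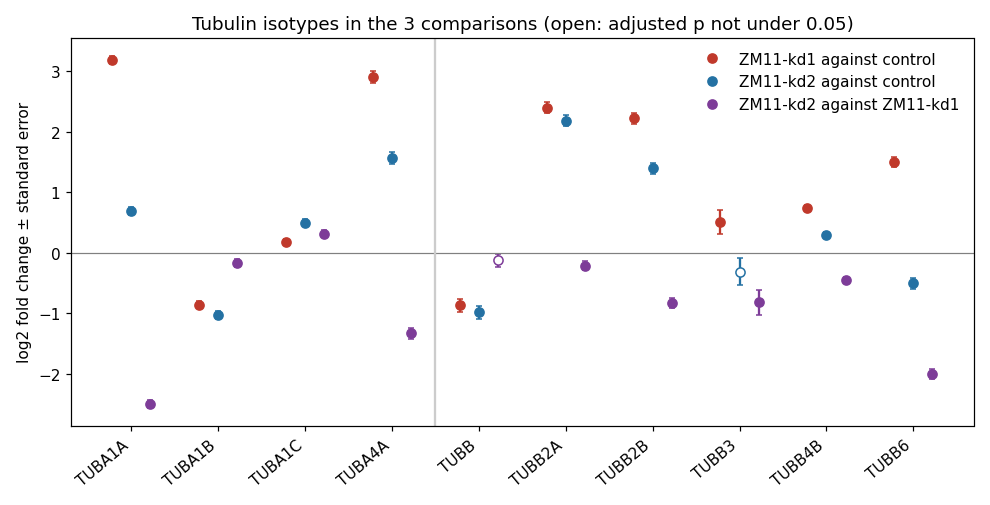
Log2 fold change of each tubulin isotype with its standard error, from edgeR, for ZM11-kd1 against control (red), ZM11-kd2 against control (blue) and ZM11-kd2 against ZM11-kd1 (purple); open points have an adjusted p that is not under 0.05. The red points of TUBA1A, TUBA4A, TUBB2A and TUBB2B lie above 2, TUBA1B and TUBB lie below 0 in both knockdowns, and TUBB6 lies on opposite sides of 0.

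The knockdowns were also compared directly, as ZM11-kd2 against ZM11-kd1. Of the 10, 1 was called higher (TUBA1C), 8 lower and 1 not called (TUBB), against 34.9% of all genes higher and 33.8% lower. At 1.5-fold, 0 were higher and 5 lower, against 21.9% and 22.8% of all genes. The median was -0.63 for the isotypes and 0.02 for all genes. After correction for GC content and length 3 isotypes were called higher and 5 lower, with a median of -0.29. TUBA1A differed by -2.50 (SE 0.07, edgeR adjusted p = 3.43e-12) and TUBB6 by -2.01 (SE 0.09, adjusted p = 1.12e-10). TUBA4A differed by -1.33 (SE 0.08, adjusted p = 4.36e-09) and TUBB2B by -0.83 (SE 0.08, adjusted p = 6.43e-07). TUBA1C differed by 0.32. The call for TUBA1B (-0.17) was lost in 9 of the 15 alternatives tried, and it turned to 0.017 (adjusted p = 0.838) with library totals alone, and TUBB2A (-0.22, adjusted p = 0.0192) reversed to 0.29 (adjusted p = 0.00110) after correction for GC content and length. TUBB4B reversed likewise, from -0.44 (adjusted p = 1.84e-06) to 0.20 (adjusted p = 0.000925). TUBB was at -0.12 (SE 0.11, adjusted p = 0.344), and at -0.36 without ZM11-kd2 replicate 2, which left 1 library in that group. TUBB3 was at -0.82 (adjusted p = 0.00288), and at -0.55 without ZM11-kd1 replicate 1, again with 1 library left in that group.

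The makeup of each tubulin family was then expressed as a share of the summed level, with levels per kilobase of merged exons so that isotypes of different length could be compared. The shares are given as a description, with no test, and they take each count as it stands. Reads lost for matching several places would lower the shares of the members with most copies: TUBB, TUBB2A, TUBB2B and TUBA1B. TUBA1A made up 41.5% and 40.2% of the alpha level in control, 83.7% and 84.3% in ZM11-kd1, and 54.2% and 50.9% in ZM11-kd2. TUBA1B went from 32.3% ± 0.0938 in control to 4.02% ± 0.225 in ZM11-kd1 and 12.7% ± 1.67 in ZM11-kd2 (SD, n = 2). TUBA1C made up 23.3% ± 0.303, 5.94% ± 0.261 and 26.2% ± 0.546 in the same order. Within the alpha family, TUBA1A thus took most of the level in ZM11-kd1, and TUBA1C overtook TUBA1B in both knockdowns.

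By these counts TUBB4B had the largest share of the beta level in all groups, at 85.5% ± 0.145 in control, 82.0% ± 0.324 in ZM11-kd1 and 84.5% ± 0.532 in ZM11-kd2. None of its windows had an exact copy, against 48.7% for TUBB2A, 41.5% for TUBB2B and, on alternate contigs, 84.5% for TUBB. If reads with several matches were dropped, the TUBB4B share is too high and the order of TUBB and TUBB2A may differ, which was not tested. TUBB went from 7.45% ± 0.00384 to 2.36% ± 0.145 and 3.04% ± 0.745. TUBB2A went from 1.96% ± 0.212 to 5.96% ± 0.0198 and 7.18% ± 0.248, so the order of TUBB and TUBB2A was exchanged. TUBB6 made up 3.26% ± 0.321, 5.34% ± 0.0333 and 1.86% ± 0.134. TUBB3 made up 0.275%, 0.225% and 0.180%. With coding length in place of merged exon length, TUBA1C again overtook TUBA1B and TUBB2A again overtook TUBB in both knockdowns, with TUBB4B at 75.2%, 71.4% and 75.6%, TUBB at 13.1%, 4.11% and 5.45% and TUBB3 at 0.873%, 0.707% and 0.581%. The order of TUBB2A and TUBB6 in ZM11-kd1 depended on the length used, at 5.96% and 5.34% by merged exons and 7.41% and 8.98% by coding length.

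**Figure D4:**
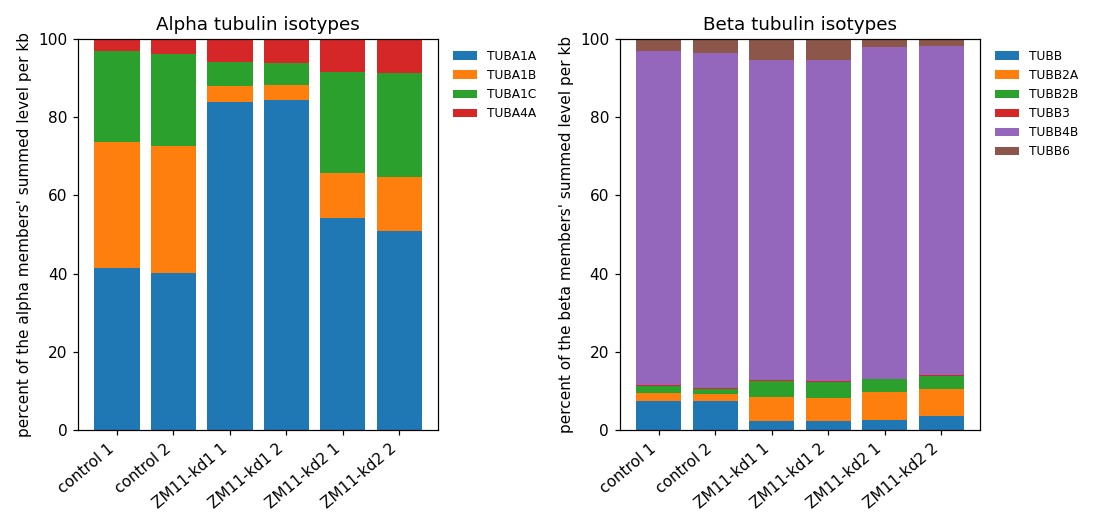
Stacked bars give each isotype's percent of the summed level per kilobase of merged exons, for alpha members (left) and beta members (right), with 1 bar for each of the 6 libraries. TUBA1A fills 83.7% and 84.3% of the alpha bars in ZM11-kd1 against 41.5% and 40.2% in control, and TUBB4B fills more than 81% of every beta bar.

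In control, the order of levels per kilobase was TUBB4B (164 to 165 CPM per kilobase), TUBA1A (35.0 to 35.7), TUBA1B (27.7 to 28.1), TUBA1C (19.8 to 20.4) and TUBB (14.3 to 14.4), with TUBB6, TUBB2A, TUBA4A, TUBB2B and TUBB3 below. By merged exon length, only the neighbours TUBA4A and TUBB2B overlapped in control. By coding length TUBB2A (7.58 to 8.79 CPM per kilobase), TUBA4A (7.54 to 9.39) and TUBB2B (8.16 to 10.2) all overlapped in control, and in ZM11-kd1 TUBA1C (75.1 to 75.2) stood above TUBA4A (60.7 to 66.5), so these places in the order depend on the length used. In ZM11-kd1 TUBA1A headed the order at 311 to 334 CPM per kilobase, above TUBB4B at 272 to 276, and the ranges of TUBA4A and TUBA1C overlapped by merged exons. In ZM11-kd2 TUBB4B was again first (197 to 206) and TUBA1A next (52.5 to 61.5), and TUBB2B and TUBB overlapped.

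Summed over alpha members, the level was 334 and 338 CPM in control, 1428 and 1522 CPM in ZM11-kd1, and 447 and 408 CPM in ZM11-kd2. Summed over beta members it was 445 and 447, 780 and 783, and 551 and 536 CPM. Both sums were higher in every knockdown library than in control. The alpha sum rose by 2.14 and 0.35 on the log2 scale (edgeR adjusted p = 4.09e-13 and 6.85e-05) and the beta sum by 0.81 and 0.29 (adjusted p = 9.86e-10 and 8.95e-05) in ZM11-kd1 and ZM11-kd2. The beta sum, which is mostly TUBB4B, was at 0.13 (adjusted p = 0.0161) and 0.14 (adjusted p = 0.0110) once GC content and length were corrected for. The 10 members took 0.0883% and 0.0881% of all counts in control, 0.196% and 0.202% in ZM11-kd1, and 0.0989% and 0.0958% in ZM11-kd2.

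The chaperonin CCT folds both tubulins, and 7 of its 8 subunits rose in ZM11-kd1 and 8 of 8 in ZM11-kd2, with medians of 0.54 and 0.59, against 38.2% and 36.5% of all genes called higher. CCT3 rose by 1.00 and 0.98 and CCT4 by 1.00 and 0.95 on the log2 scale. With library totals as the only scaling, 5 CCT subunits were called higher and 2 lower in ZM11-kd1, and 6 higher in ZM11-kd2. Of all genes, 4596 were then called higher and 8420 lower in ZM11-kd1, and 4967 and 7220 in ZM11-kd2. After correction for GC content and length 8 were higher in ZM11-kd1 and 7 in ZM11-kd2. Prefoldin delivers unfolded tubulin to CCT, and 5 of its 6 subunits rose in each knockdown, with PFDN5 at -0.16 (adjusted p = 0.301) and 0.03 (adjusted p = 0.847). With library totals alone PFDN5 was called lower in ZM11-kd1 (-0.52, adjusted p = 0.00363). The rise of PFDN4 in ZM11-kd2 (0.18, adjusted p = 0.0409) was lost with library totals alone (0.0050, adjusted p = 0.954) and turned to -0.43 (adjusted p = 8.87e-06) after correction for GC content and length. PFDN6 rose by 1.91 (SE 0.09) and 1.34 (SE 0.09) and PFDN1 by 2.05 (SE 0.09) and 1.09 (SE 0.09).

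The tubulin cofactors join alpha and beta tubulin into the dimer. Of 7 genes listed with them, 4 rose and 2 fell in ZM11-kd1 (all genes 38.2% and 39.8%), and 5 rose and 1 fell in ZM11-kd2 (all genes 36.5% and 36.9%). The list includes TBCEL, a cofactor E-like gene that is not itself one of these cofactors. TBCEL fell in ZM11-kd1 (log2 fold change -1.15, edgeR adjusted p = 3.21e-09) and was not called in ZM11-kd2 (0.15, adjusted p = 0.0767). ARL2, a small GTPase of the cofactor complex, stood at 15.6 and 14.7 CPM in control, 93.5 and 97.1 CPM in ZM11-kd1, and 29.9 and 27.3 CPM in ZM11-kd2. Its log2 fold change was 2.65 (SE 0.08, edgeR adjusted p = 6.12e-13) and 0.91 (SE 0.08, adjusted p = 8.73e-08). TBCC, which activates the GTPase step of dimer release, rose by 1.81 and 1.37. After correction for GC content and length, ARL2 and TBCC in ZM11-kd1 were at 1.72 and 1.09, and 6 of the 7 genes were called higher and 1 lower. TBCD, which holds beta tubulin, fell in ZM11-kd2 (log2 fold change -1.48, SE 0.07, adjusted p = 2.43e-10). In ZM11-kd1 TBCD was at -0.36 (adjusted p = 0.000295), and at 0.18 (adjusted p = 0.0137) after correction for GC content and length.

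Of the 3 autoregulation genes, 2 were called higher and 1 lower in ZM11-kd1 (all genes 38.2% and 39.8%), and 1 higher in ZM11-kd2 (all genes 36.5%). TTC5 stood at 30.9 and 31.9 CPM in control, 40.6 and 41.9 CPM in ZM11-kd1, and 31.3 and 32.3 CPM in ZM11-kd2. Its log2 fold change was 0.39 in ZM11-kd1 (SE 0.07, edgeR adjusted p = 0.000138) and 0.02 in ZM11-kd2 (adjusted p = 0.794), and the ZM11-kd1 value was 0.04 (adjusted p = 0.641) with library totals alone and 0.96 (adjusted p = 8.16e-10) after correction for GC content and length. SCAPER was at -0.32 (adjusted p = 0.0210) and 0.23 (adjusted p = 0.0850) in the same order. With that correction all 3 genes were called higher in both knockdowns, SCAPER at 0.33 (adjusted p = 0.0114) and 0.49 (adjusted p = 0.000403) and TTC5 at 0.21 (adjusted p = 0.0111) in ZM11-kd2. CNOT11 rose by 1.09 (adjusted p = 2.53e-10) and 0.94 (adjusted p = 2.10e-09). The part of these 3 genes in the isotype results was not tested.

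Of 13 other tubulin genes, 11 were tested, with 3 higher and 3 lower in ZM11-kd1 and 2 higher and 4 lower in ZM11-kd2. As shares of the 11, none of these counts exceeded that of all genes (38.2% higher and 39.8% lower, and 36.5% and 36.9%). TUBG1, the main gamma tubulin, rose by 1.08 and 0.98 on the log2 scale, and TUBD1, delta tubulin, by 1.14 and 1.02. TUBA3D, at 55 counts in each control library, had 11 and 15 in ZM11-kd1 and 10 and 13 in ZM11-kd2, and fell (log2 fold change -2.11 and -2.43). Copies of its sequence in other genes were not searched for, so this is uncertain as a single-gene value. Genes of the gamma-tubulin ring complex, which nucleates microtubules, were tested for all 9: 2 rose and 7 fell in ZM11-kd1, and 1 rose and 5 fell in ZM11-kd2, against 39.8% and 36.9% of all genes called lower. At 1.5-fold 4 and 3 of the 9 were lower, against 31.2% and 27.3%. The gene that rose in ZM11-kd2, MZT1 (0.20), was at -0.37 (adjusted p = 1.67e-05) after correction for GC content and length. In ZM11-kd1 that correction ended the calls of MZT2A (0.88 to 0.10, adjusted p = 0.248) and TUBGCP5 (-0.50 to -0.14, adjusted p = 0.358) and took MZT2B from 1.89 to 0.58, which left 1 higher and 6 lower. In ZM11-kd2 it gave 1 higher and 6 lower as well. TUBGCP4 had log2 fold changes of -2.21 and -1.46 and TUBGCP3 of -1.77 and -1.03. After correction for GC content and length the ZM11-kd1 values of TUBA3D and TUBGCP4 were -2.99 and -1.58.

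Enzymes that modify tubulin after translation, many of which act on the glutamates of the tails, were tested for 19 of 21 genes. Of these, 5 rose and 11 fell in ZM11-kd1 and 3 rose and 12 fell in ZM11-kd2, with medians of -0.79 and -0.53, against 38.2% of all genes higher and 39.8% lower in ZM11-kd1 and 36.5% and 36.9% in ZM11-kd2. With library totals alone 3 were higher and 14 lower in each knockdown. TTLL1, the catalytic part of a polyglutamylase complex, rose by 2.56 and 0.87 on the log2 scale, and SIRT2, a tubulin deacetylase, by 1.36 and 1.10. VASH2, which removes the terminal tyrosine of alpha tubulins, fell (log2 fold change -1.82 and -2.85). TTLL9 also fell (-1.65 and -2.89), from 16 and 18 counts in control. Among 23 microtubule-associated and severing genes, 11 rose and 11 fell in ZM11-kd1 (all genes 38.2% and 39.8%) and 9 rose and 9 fell in ZM11-kd2, the latter close to the 36.5% and 36.9% of all genes. With library totals alone, where all genes shifted as given above, these became 6 and 13, and 7 and 11. After correction for GC content and length they were 12 and 7, and 10 and 9. MAPRE3, an end-binding protein, rose by 2.13 and 1.95, and MAP7D1 by 1.20 and 1.43. MAP2, a dendritic microtubule-binding protein, fell (log2 fold change -1.90 and -2.22), as did MAP1A (-1.18 and -2.62), with MAP2 at -1.24 in ZM11-kd1 after that correction for GC content and length.

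**Figure D5:**
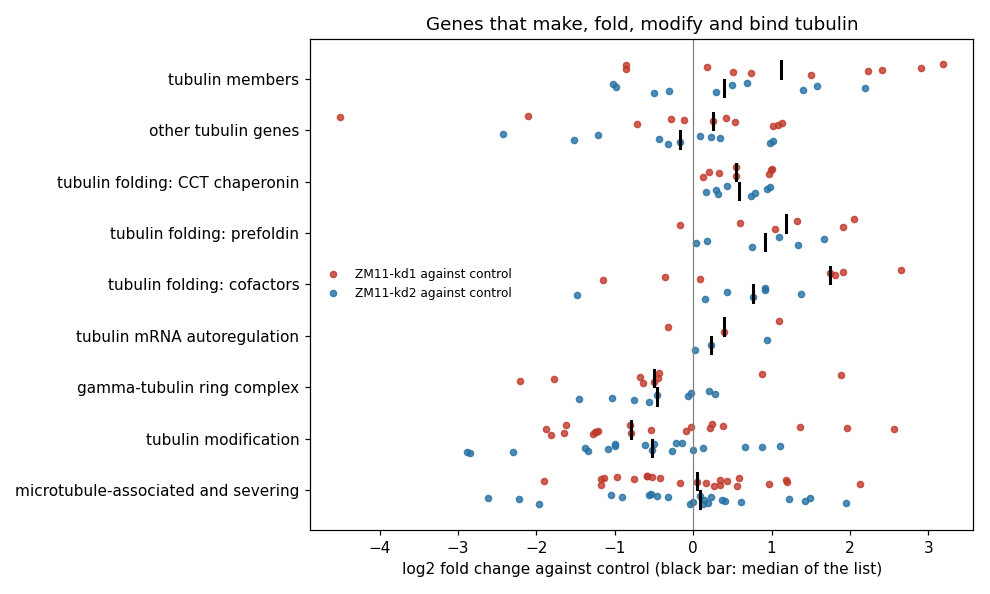
Log2 fold change against control of each tested gene (points) in lists of tubulin genes and of genes that fold, modify and bind tubulin, for ZM11-kd1 (red) and ZM11-kd2 (blue), with the list median as a black bar. The chaperonin points all lie above 0 in both knockdowns, although with library totals as the only scaling 2 of 8 were called lower in ZM11-kd1 and 6 of 8 higher in ZM11-kd2, and the medians of the gamma-tubulin ring complex and of tubulin modification lie below 0.

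The genes outside the tubulin family whose log2 level was most like that of TUBA1A over the 6 libraries were FBXL2, GPAA1 and YWHAQ, with Pearson correlations that round to 1.00. As many as 344 genes had a correlation above 0.99 with TUBA1A, and the 3 named changed less, with log2 fold changes of 1.53, 1.14 and 1.11 in ZM11-kd1. For TUBB4B the closest were PNKD, SMDT1 and GPR108, among 483 genes above 0.99. These correlations describe 6 libraries that fall into 3 groups of replicates.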

How the data were processed

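RNA libraries of 22Rv1 cells (poly(A) selected or rRNA depleted; the protocol names both) were sequenced as 150-base pairs. Per the study's methods the authors trimmed reads and aligned them with STAR 2.7.9a to hg38; the submitters' processing notes also name FastQC 0.11.9 and HTSeq 0.13.5, the latter with no role. Annotation, strand setting and treatment of reads with several matches are not given in the sources used here. The deposited table holds raw counts per gene symbol for 6 libraries, with no normalization; columns were matched to samples by their descriptions.

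Counts were filtered with filterByExpr, scaled by TMM and fitted for 3 groups with edgeR 4.0.16 (R 4.3.3, quasi-likelihood, 3 residual degrees of freedom). P-values were adjusted by Benjamini-Hochberg over 16510 genes, with calls at 0.05. The code was tested on simulated data. Alternatives were DESeq2 1.42.0 (size factors, Wald test), library totals, correction for GC content and length (lowess span 0.3), other filters, a fit of only the groups compared, a replicate block and leaving out each library. A fit without 1 library left 1 in its group, so its calls rest on the spread within the other groups. Summing all alpha or all beta members was added after the data were seen; sums took the GC content and length of their members, weighted by counts. Copies of transcript windows were found with blastn 2.17.0.

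All isotypes, ZMYND11, TTC5 and SCAPER were named. From each other list up to 2 genes with the largest mean rise and up to 2 with the largest mean fall, called the same way in both knockdowns, were eligible to be named, and other tubulin genes when also changed at least 1.5-fold in both. STK16, AFG3L2, PFDN4, PFDN5, TBCEL, MZT1, MZT2A, MZT2B, TUBGCP5 and LYZ were named outside this rule, after their values were seen. Members and lists were chosen with earlier results of these data known. Replicates differed by more than sampling noise in every group and were kept apart. Counting error is small at these depths except for TUBB3. Some sequences are not reported here.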

Additional observations from a re-analysis of the deposited data

Results flagged for a closer look

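For 9 isotypes the effect of ZM11-kd2 differed from that of ZM11-kd1, by the edgeR test of ZM11-kd2 against ZM11-kd1, which is the difference of both effects against the shared control. In that test 34.9% of all genes were called higher and 33.8% lower, so a call was common among all genes too. On the log2 scale the differences were -2.50 for TUBA1A, -0.17 for TUBA1B, 0.32 for TUBA1C, -1.33 for TUBA4A, -0.22 for TUBB2A, -0.83 for TUBB2B, -0.82 for TUBB3, -0.44 for TUBB4B and -2.01 for TUBB6. After correction for GC content and length TUBB2A turned to 0.29 (adjusted p = 0.00110) and TUBB4B to 0.20 (adjusted p = 0.000925). TUBA1B lost its call in 9 alternatives and turned with library totals alone, and the TUBB3 difference shrank without ZM11-kd1 replicate 1, which left 1 library in that group. For TUBB6 the effects had opposite signs that were both called, and with library totals alone this also held for TUBA1C (-0.17 and 0.33). ZMYND11 itself stood at 26.9 ± 1.12 CPM in ZM11-kd1 and 22.1 ± 0.841 CPM in ZM11-kd2 (SD, n = 2), a difference of -0.28 on the log2 scale that became -0.73 after correction for GC content and length. The part of that gap, and of the hairpin used, in these differences was not tested.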

How the results depend on the processing

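Each log2 fold change of an isotype was refitted under 15 alternatives, giving 450 values, of which 416 kept direction and call, 25 lost the call, 2 gained it and 7 changed sign. TUBA1A, TUBA1B, TUBA4A, TUBB, TUBB2A, TUBB2B and TUBB6 kept direction and call against control in both knockdowns under all 15, with TUBA1A at 2.84 to 3.24 in ZM11-kd1. With library totals alone the sign changed for TUBA1B (0.017, adjusted p = 0.838) and TUBB (0.063, adjusted p = 0.649) between the knockdowns and for TUBA1C in ZM11-kd1 (-0.17). That scaling moved the median of all genes by -0.35 in ZM11-kd1, -0.17 in ZM11-kd2 and 0.18 between the knockdowns, and the share of calls that were higher from 49.0% to 35.3% in ZM11-kd1 and from 50.8% to 61.1% between the knockdowns. Isotypes called in ZM11-kd1 were then 6 higher and 3 lower. With correction for GC content and length the sign changed for TUBB4B in ZM11-kd1 (-0.10) and between the knockdowns (0.20), for TUBB2A between the knockdowns (0.29), and for the sum of all beta members between the knockdowns (0.010, adjusted p = 0.856). Leaving out 1 library, TUBB between the knockdowns ran from -0.36 to 0.078. Besides these, the difference of TUBA1B between the knockdowns lost its call in 9 alternatives and that of TUBB2A in 4. Among the paralog sums, TUBA1A+TUBA1B+TUBA1C in ZM11-kd2 was lost with library totals (0.11, adjusted p = 0.0650), and TUBB2A+TUBB2B between the knockdowns with correction for GC content and length (-0.089, adjusted p = 0.236). The cause of these changes was not tested.

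Same-numbered libraries did not deviate together (correlations 0.00620, -0.0264 and -0.0440), so numbers do not pair them. The fit with a replicate block called 9 isotypes in each comparison, and TUBB3 in ZM11-kd1 lost its call (0.51, adjusted p = 0.0565). TUBB3, at 95 to 221 counts, is the member that depth limits most.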
